A study of Homo sapiens with 6 samples.

Results

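Mitochondrial DNA (mtDNA) is copied and transcribed by a small set of proteins that are all encoded in the nucleus, and the ribosome footprints on the mRNAs of 10 of these genes were examined in N6AMT1-depleted cells. The genes were picked by symbol for their function, by a rule that uses no measured value, though earlier results of these data were known: POLRMT, TFAM, TFB2M, TEFM, MTERF1, TWNK (listed as C10orf2), POLG, POLG2, SSBP1 and TOP1MT. All 10 were found among the 19330 genes of the table. The cells were K562, a human chronic myelogenous leukemia line, carrying pLentiCRISPRv2 with an sgRNA. The sgRNA was against N6AMT1 (sgN6AMT1, 3 libraries) or against the olfactory receptor genes OR11A1 and OR2M49 (sgCtrl, 3 libraries). OR2M49 is the spelling of the labels, and the study's methods name this target OR2M4. Both groups were selected with puromycin for 48 h and analysed 10 days after infection. Per a figure legend of the study, each replicate was an independent transduction. The cells were selected pools and not clones, so a pool can hold unedited cells, and all libraries came from a single cell line. N6AMT1 methylates eRF1, the factor that releases finished proteins from the ribosome, and the comparison asks whether its loss changed how the mRNAs of these genes were occupied by ribosomes.

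Transcription of mtDNA needs a single-subunit RNA polymerase (POLRMT), a DNA-bending factor that places it on the promoter and also packs mtDNA into nucleoids (TFAM), and a factor that opens the promoter (TFB2M). TEFM then keeps the polymerase on its template and MTERF1 binds downstream of the rRNA genes as a termination factor. At the replication fork the helicase Twinkle (TWNK) unwinds the duplex, the polymerase gamma subunits POLG (catalytic) and POLG2 (accessory) make the new strand, SSBP1 coats single strands, and TOP1MT relieves the supercoils. Short RNAs made by POLRMT prime replication, which ties both processes together. Mutations in several of these genes, POLG and TWNK among them, cause mtDNA depletion or deletions.

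Because eRF1 acts at stop codons, the stop codon of each listed transcript is shown, in capitals, with 12 coding bases before it and 9 bases after it, on the mRNA strand of GRCh38 as annotated by GENCODE release 44. TOP1MT, which ends in TAA, is named only.
SSBP1, chr7:141750340-141750363, plus strand: aaagagaaggagTAGaaaggatga
TFB2M, chr1:246541022-246541045, minus strand: ctggaagataggTAGcaactagac
TEFM, chr17:30899160-30899183, minus strand: gactctcagcctTAGaattctgag
POLG, chr15:89316742-89316765, minus strand: cagcctggaccaTAGcactgcctg
POLG2, chr17:64477814-64477837, minus strand: gctaagaatgtaTAGatttttata
TFAM, chr10:58395060-58395083, plus strand: gctgaggagtgtTAAaagtagaag
MTERF1, chr7:91873585-91873608, minus strand: agcagatttgccTAAggatgccaa
POLRMT, chr19:617265-617288, minus strand: tacttcttcagcTGAcaccccgtg
TWNK, chr10:100993496-100993519, plus strand: aagcgttcaaagTGAaggccgtgc
Of the 10 genes, 5 ended in TAG, 3 in TAA and 2 in TGA. Among all tested genes with an annotated stop codon, 21.2% ended in TAG, 29.7% in TAA and 49.1% in TGA. Of the genes ending in TAG 13.4% were lower past the threshold used below, against 16.3% of those ending in TAA and 12.5% of those ending in TGA. Higher past it were 14.1% of those ending in TAG, 13.1% of those in TAA and 12.3% of those in TGA.

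The libraries held 1821356 to 2969736 footprint counts, and 0.106% to 0.122% of these fell on the 10 genes. N6AMT1 itself held 25, 24 and 34 footprints in the sgCtrl libraries, against 10, 9 and 8 for sgN6AMT1, a log2 fold change (log2FC, sgN6AMT1 over sgCtrl) of -1.51 (SE 0.31, edgeR adjusted p 6.69e-05). All 9 markers of K562 cells were detected, and their summed level was 27206 to 28703 CPM (footprint counts scaled to library size) in sgCtrl and 27745 to 28698 CPM in sgN6AMT1, most of it from HBG1 and HBG2, which were not called. Single markers moved both ways, with ALAS2, HBE1 and TAL1 higher (log2 fold changes 1.68, 0.48 and 0.48, sgN6AMT1 over sgCtrl) and HBZ, GATA1 and TFRC lower (-0.27, -0.29 and -0.33), and their part in the results was not tested. Of the other markers listed, CD3E and MS4A1 had at most 4 counts in a library, and the 3 fibroblast markers summed to 37.2 to 42.4 CPM in sgCtrl and 32.0 to 36.9 CPM in sgN6AMT1. The 3 epithelial markers summed to 409 to 423 CPM in sgCtrl and 589 to 625 CPM in sgN6AMT1. Of these KRT19 rose (log2FC 0.84, edgeR adjusted p 5.10e-22). EPCAM had means of 177 CPM in sgCtrl and 184 CPM in sgN6AMT1 and was not called (log2FC 0.054, edgeR adjusted p 0.639). CDH1 was at or near 0, and any part of these markers in the results was not tested. Footprints follow mRNA level as well as translation, which cannot be told apart here, and neither can fewer expressing cells and less RNA per cell.

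The 10 genes covered a wide range of ribosome occupancy. Levels are compared between genes per length, as CPM per kb of coding sequence (CDS). SSBP1, with a CDS of 447 bases, stood highest at 1282 ± 80.5 CPM per kb in sgCtrl (SD, n = 3). By its mean over all 6 libraries it lay above 97.8% of the tested genes with a matched CDS. In sgCtrl TFAM followed at 302 ± 8.72 and TFB2M at 110 ± 4.41 CPM per kb (SD over n = 3). None of these 3 overlapped its neighbour in either group. They are the coat proteins of single-stranded and double-stranded mtDNA and the promoter-opening factor.

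TEFM, POLRMT, POLG2, MTERF1 and TOP1MT formed a middle group in sgCtrl, with means of 30.1, 28.9, 24.3, 22.9 and 20.8 CPM per kb. Each of these overlapped the next in the range of its 3 libraries, so neighbours are not resolved, while all libraries of TEFM lay above those of POLG2, MTERF1 and TOP1MT, and all of POLRMT above those of MTERF1 and TOP1MT. POLG and TWNK stood lowest, at 11.8 ± 0.85 and 9.03 ± 1.01 CPM per kb (SD over n = 3). Their libraries did not overlap in sgCtrl, but they did in sgN6AMT1 (11.1 ± 1.77 and 9.74 ± 1.46 CPM per kb, SD over n = 3). The highest and lowest means lay 142-fold apart in sgCtrl and 104-fold in sgN6AMT1. The ranks of the genes were the same in both groups but for MTERF1 and TOP1MT, which traded places and overlapped in both.

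**Figure D1:**
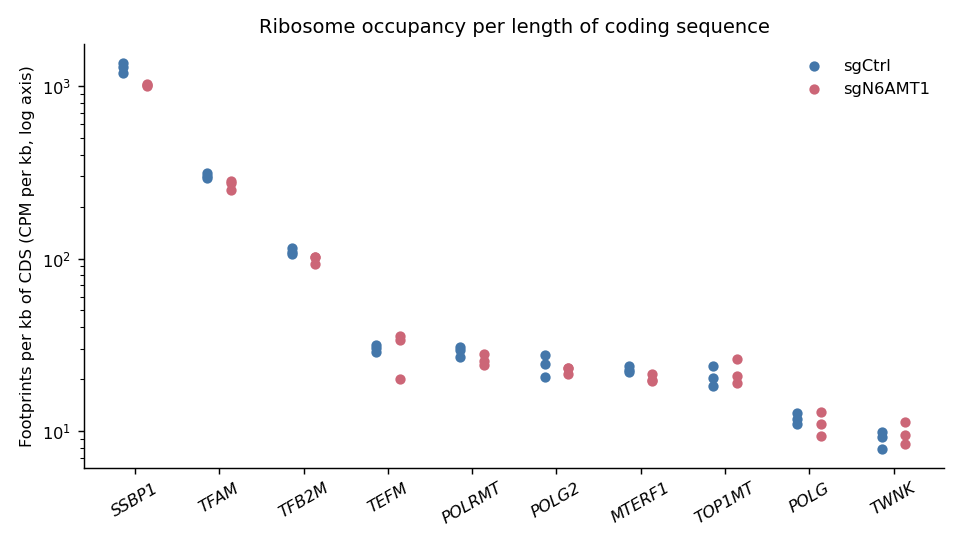
Footprints per kb of CDS (CPM per kb, log axis) of the 10 genes, ordered by their mean, with 1 point per library and the groups side by side. SSBP1, TFAM and TFB2M stand apart from the other genes in both groups, and POLG and TWNK lie lowest.

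Upon N6AMT1 depletion, SSBP1 was the only one of the 10 genes whose occupancy changed past the threshold, an adjusted p of 0.05 over all 9202 genes with enough counts, and it fell. Across all tested genes 26.9% were called by this rule, 13.9% lower and 12.9% higher, so 1 of 10 lower and 0 of 10 higher is no excess over the table. At an unadjusted p under 0.05, 2 of the 10 genes stood (SSBP1 and TFAM), beside 36.8% of all tested genes. The median log2FC of the 10 genes was -0.14, beside 0.0063 over all tested genes, and 7 of 10 were negative, beside 49% of all tested genes. Their median absolute log2FC was 0.14, beside 0.21 over all tested genes. All 10 passed the filter on low counts.

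SSBP1 (ENST00000612337.4, chromosome 7, 141738334 to 141750488, plus strand, 7 exons) encodes the protein that covers the displaced strand while mtDNA is copied. Its footprints numbered 1065, 1759 and 1172 in the sgCtrl libraries, against 1055, 1035 and 837 for sgN6AMT1. Scaled to library size these were 535, 606 and 578 CPM against 462, 447 and 454 CPM, so every sgN6AMT1 library lay below every sgCtrl library. The mean went from 573 ± 36.0 to 455 ± 7.64 CPM (SD over n = 3). The fitted log2FC was -0.34, a change of -20.9% (SE 0.054, 95% interval -0.45 to -0.23, edgeR adjusted p 3.69e-07). The call held under each of 14 alternatives (-0.40 to -0.28). A steeper fall than that of SSBP1 was seen in 58.6% of the 1282 genes called lower.

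**Figure D2:**
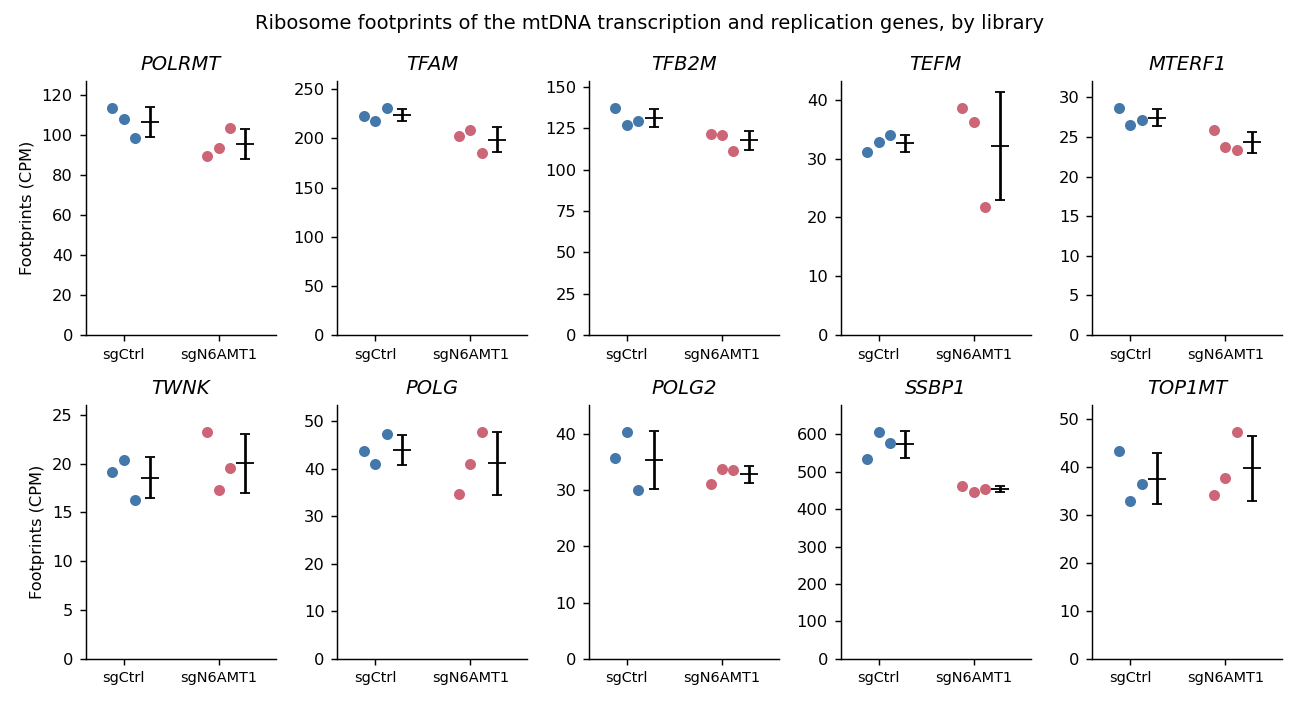
Footprints in CPM (linear axis from 0) of each gene, with 1 point per library and the mean with its SD (n = 3) beside each group. For SSBP1, TFAM, TFB2M and MTERF1 all sgN6AMT1 points lie below all sgCtrl points, and in TEFM sgN6AMT1 replicate 3 lies below all other libraries.

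The 3 genes of transcription initiation had similar, small differences that did not pass. TFAM (ENST00000487519.5, chromosome 10, 58385410 to 58399220, plus strand, 7 exons) held 444, 632 and 468 footprints in the sgCtrl libraries, against 462, 484 and 341 for sgN6AMT1. In CPM these were 223, 218 and 231 against 203, 209 and 185, again with no overlap. Its log2FC was -0.16 (SE 0.068, 95% interval -0.30 to -0.029, unadjusted edgeR p 0.0181, adjusted p 0.0630). The call depended on the fit: with trends on CDS length and GC content removed it passed (log2FC -0.18, edgeR adjusted p 0.0145), and over all alternatives the adjusted p ran from 0.0145 to 0.244. GENCODE lists 2 TFAM pseudogenes and 1 each of POLRMT and MTERF1, with which reads can be shared.

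TFB2M (ENST00000366514.4, chromosome 1, 246540561 to 246566261, minus strand, 8 exons) held 273, 369 and 262 footprints in the sgCtrl libraries, against 277, 280 and 205 for sgN6AMT1. It stood at 131 ± 5.25 CPM in sgCtrl and 118 ± 5.72 CPM in sgN6AMT1 (SD over n = 3), with no overlap. The log2FC was -0.15 (SE 0.084, edgeR adjusted p 0.200). POLRMT (ENST00000588649.6, chromosome 19, 617221 to 633537, minus strand, 21 exons) held 226, 314 and 200 footprints in the sgCtrl libraries, against 204, 217 and 191 for sgN6AMT1. Its groups overlapped, at 107 ± 7.57 and 95.6 ± 7.32 CPM (SD over n = 3), with a log2FC of -0.17 (SE 0.093, edgeR adjusted p 0.189). TFB2M and POLRMT kept a negative sign in all 14 alternatives and passed in none.

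Of the genes that act after initiation, neither passed. TEFM (ENST00000581216.5, chromosome 17, 30898986 to 30906238, minus strand, 4 exons) held 62, 95 and 69 footprints in the sgCtrl libraries, against 88, 84 and 40 for sgN6AMT1. In CPM the sgCtrl libraries lay close together, at 31.1, 32.8 and 34.02, while sgN6AMT1 gave 38.6, 36.3 and 21.7. The first 2 sgN6AMT1 libraries were above all sgCtrl libraries and replicate 3 was below them all. The log2FC was 0.0078 (SE 0.15, 95% interval -0.29 to 0.31, edgeR adjusted p 0.981), and without sgN6AMT1 replicate 3 it was 0.19 (adjusted p 0.385). MTERF1 (ENST00000351870.7, chromosome 7, 91870929 to 91880702, minus strand, 3 exons) held 57, 77 and 55 footprints in the sgCtrl libraries, against 59, 55 and 43 for sgN6AMT1. It stood at 27.4 ± 1.08 and 24.3 ± 1.35 CPM (SD over n = 3) with no overlap, a log2FC of -0.16 (SE 0.16, edgeR adjusted p 0.495).

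At the replication fork the polymerase and helicase genes did not pass either. POLG (ENST00000442287.6, chromosome 15, 89316320 to 89334861, minus strand, 23 exons) held 87, 119 and 96 footprints in the sgCtrl libraries, against 79, 95 and 88 for sgN6AMT1. Its levels were 44.02 ± 3.16 and 41.1 ± 6.57 CPM (SD over n = 3), with a log2FC of -0.10 (SE 0.13, edgeR adjusted p 0.619). POLG2 (ENST00000539111.6, chromosome 17, 64477785 to 64497054, minus strand, 8 exons) held 71, 117 and 61 footprints in the sgCtrl libraries, against 71, 78 and 62 for sgN6AMT1. Its log2FC was -0.13 (SE 0.14, edgeR adjusted p 0.546). In both genes the groups overlapped.

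TWNK (ENST00000311916.6, chromosome 10, 100987543 to 100994403, plus strand, 5 exons) was the least counted of the genes, with 38, 59 and 33 footprints in the sgCtrl libraries, against 53, 40 and 36 for sgN6AMT1. Its levels were 18.6 ± 2.09 and 20.02 ± 3.003 CPM (SD over n = 3), and its log2FC was 0.10 (SE 0.19, 95% interval -0.28 to 0.47, edgeR adjusted p 0.759). TOP1MT (ENST00000329245.8, chromosome 8, 143309324 to 143334880, minus strand, 14 exons) held 86, 95 and 74 footprints in the sgCtrl libraries, against 78, 87 and 87 for sgN6AMT1. Its log2FC was 0.086 (SE 0.14, 95% interval -0.19 to 0.36, edgeR adjusted p 0.699). The groups overlapped in both genes, and for both the sign changed when single libraries were left out.

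**Figure D3:**
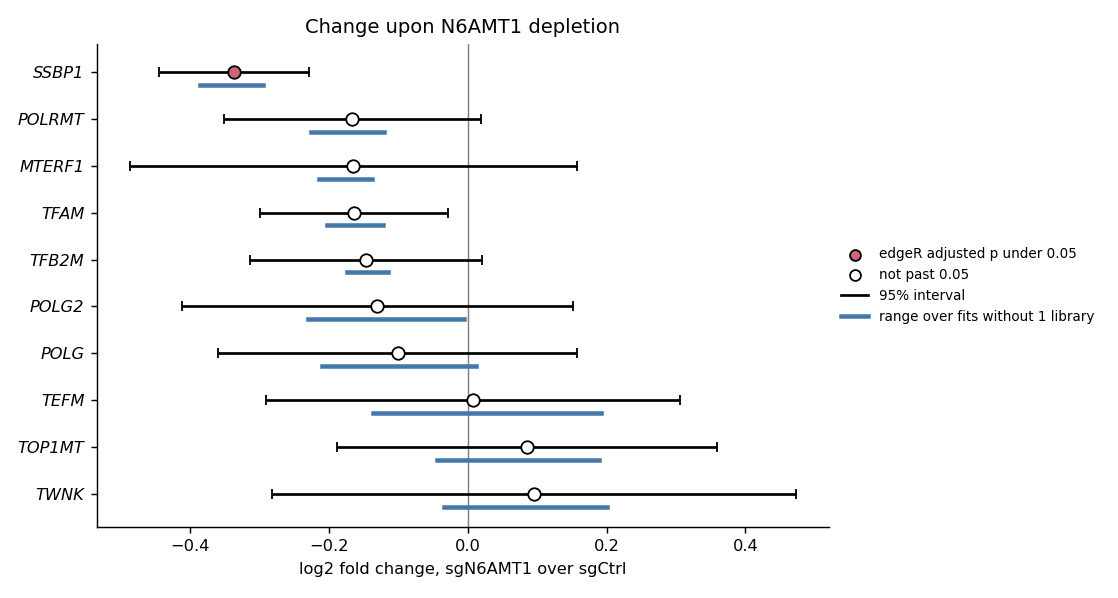
Log2 fold change of each gene (sgN6AMT1 over sgCtrl, horizontal axis) with its 95% interval in black, not adjusted for the number of genes, and below it in blue the range over fits that each left out 1 library. SSBP1 is the only filled point, and the intervals of the other genes reach or come close to 0.

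How small a change could be seen differed with depth. The 95% interval reached 0.11 to either side for SSBP1, with 6923 counts in all, and 0.38 for TWNK, with 259. For the 9 genes that did not pass, the intervals differed accordingly. Their fold limits ran from 0.714 at the low end (MTERF1) to 1.39 at the high end (TWNK). In 4 of 10 genes, SSBP1, TFAM, TFB2M and MTERF1, the sgN6AMT1 libraries all lay below the sgCtrl libraries, and in 0 all above. Over all tested genes 37.5% were separated in this way, 19.2% with sgN6AMT1 below and 18.4% with it above. SSBP1 took 44.2% to 48.4% of the counts of the 10 genes in sgCtrl and 42.2% to 43.5% in sgN6AMT1. Without it the other genes summed to 647 to 675 CPM in sgCtrl and 593 to 614 CPM in sgN6AMT1.

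Ratios of partner genes within a library do not depend on how libraries are scaled, so these were compared as well, per length of CDS. The ratio of TFAM to POLRMT was 10.5 ± 1.02 in sgCtrl and 10.4 ± 1.33 in sgN6AMT1 (SD over n = 3). That of TFB2M to POLRMT was 3.82 ± 0.22 and 3.85 ± 0.46, and that of POLG2 to POLG was 2.07 ± 0.44 and 2.06 ± 0.25 (SD over n = 3). The active polymerase gamma holds a dimer of POLG2 for each POLG, a protein ratio that footprints do not measure. In single libraries POLG2 over POLG ran from 1.62 to 2.51. The log2 differences of these 3 ratios were -0.012 (SE 0.14), 0.0054 (SE 0.11) and 0.0094 (SE 0.21).

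The ratio of TWNK to POLG was 0.77 ± 0.14 and 0.91 ± 0.27, and that of SSBP1 to POLG was 109 ± 12.3 and 93.7 ± 16.2 (SD over n = 3). By 2-sided exact permutation tests none of the 5 ratios passed (p from 0.3 to 1.0, adjusted p 1.0), and 3 libraries against 3 cannot give a p below 0.1. A further 3 ratios were chosen after the values had been seen. SSBP1 over TFAM was 3.98, 4.61 and 4.15 in sgCtrl and 3.79, 3.54 and 4.07 in sgN6AMT1, which overlapped (exact permutation p = 0.2). SSBP1 over POLRMT overlapped too (44.5 ± 4.97 and 39.4 ± 3.26, SD over n = 3, exact permutation p = 0.3). The fall of SSBP1 was thus not shown to differ from the smaller differences of TFAM or POLRMT. TWNK over SSBP1 was the only ratio without overlap, at 0.0071 ± 0.00084 and 0.0096 ± 0.0013 (SD over n = 3, exact permutation p = 0.1, adjusted p 0.6 over all 8 ratios).

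CDS length ran from 447 bases in SSBP1 to 3720 in POLG, with a median of 1329 beside 1395 over all tested genes, and GC content from 38.3% to 66.2%. Promoters of this gene class are known for sites of NRF1 and of ETS factors such as GABPA. In the promoters held by RefSeq (GRCh38.p14, 250 bases before to 50 after the start site, 8 of the 10 genes), GCATGCG, the core of the NRF1 motif, was searched on both strands, as was CCGGAAG for ETS factors. The NRF1 core was found in 2 of 8 genes, beside 8.64% of tested genes and 3.91% of all promoters. The ETS core was found in 5 of 8, beside 26.4% of tested genes and 10.3% of all promoters. A gene was counted if any of its promoters matched, while the shares of all promoters count each promoter singly. The like comparison is thus that with the tested genes. The matches are shown with the motif in capitals, for the genes with an NRF1 core and for SSBP1.
POLRMT, NRF1 core, chr19:633652-633678, minus strand: cgtccaccggCGCATGCcttcgcgcct
POLRMT, NRF1 core, chr19:633544-633570, minus strand: gcggcgcgggCGCATGCgcaggcgcgg
TFB2M, NRF1 core, chr1:246566261-246566287, minus strand: ctccgctgttCGCATGCgcaggctcta
POLRMT, ETS core, chr19:633614-633640, minus strand: tgggagtctaCTTCCGGctggggtttc
SSBP1, ETS core, chr7:141738353-141738379, plus strand: tccctgtgcgCCGGAAGtgatcccctg
CGCATGC and CTTCCGG are the same cores read on the other strand. The second POLRMT match and the TFB2M match also held the core on the other strand, 1 base further on. MTERF1, POLG2 and TEFM held an ETS core. A match is a run of letters and not a shown binding site.

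A wider set of genes with a part in mtDNA maintenance, not all of them particular to it, was read in the same way. These lists too were chosen with earlier results of these data known. In 6 lists with 72 genes, 70 were in the table and 63 were tested, and 17 of these (26.98%) were lower and 7 (11.1%) higher by edgeR's test, beside 13.9% and 12.9% of all tested genes. These counts depended on the tool and on single libraries. DESeq2 called 10 of the 68 genes with any count, all lower. Over the table it called 12.4% of the genes to which it gave an adjusted p, 741 lower and 588 higher. Without sgCtrl replicate 2 edgeR called 15 of 64 (13 lower, 2 higher), beside 1955 of all 9335 tested (1010 lower, 945 higher). Without sgN6AMT1 replicate 2 it called 14 of 63 (12 lower, 2 higher), beside 1859 of all 9277 tested (953 lower, 906 higher). Called lower under each alternative that tested them were ATAD3A, PHB2, HSPA9, LONP1, C1QBP, DNA2, UNG, HCFC1 and RRM2.

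Nucleoid proteins, which hold mtDNA at the inner membrane or handle its proteins, had 7 of 12 genes lower, 0 higher and a median log2FC of -0.16. Over all tested genes 13.9% were lower and 12.9% higher, and the median log2FC of the 10 core genes was -0.14. ATAD3A, a membrane ATPase associated with nucleoids, fell from 141 ± 12.5 to 90.5 ± 9.05 CPM (SD over n = 3), a log2FC of -0.65 (SE 0.090, edgeR adjusted p 6.68e-09). The prohibitin PHB2 fell from 336 ± 11.4 to 250 ± 6.81 CPM (SD over n = 3, log2FC -0.43). The mitochondrial HSP70 chaperone HSPA9 and LONP1, the protease that degrades TFAM, had log2FC of -0.39 and -0.38. In all 4 genes the groups did not overlap. Of the other 3 that were lower, SHMT2 stood at the threshold (log2FC -0.16, edgeR adjusted p 0.0495) and passed in 5 of 14 alternatives. It was lost in DESeq2 (adjusted p 0.167) and without sgCtrl replicate 1 or 3 or sgN6AMT1 replicate 1 or 2 (log2FC -0.15 to -0.12). HSPD1, at 1955 CPM in sgCtrl, passed with a log2FC of -0.16 (edgeR adjusted p 0.00346). TFAM of the core genes, at 224 CPM in sgCtrl, did not pass with -0.16. Counts of calls in lists of unlike depth are therefore not alike, and the part of depth was not tested.

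Enzymes that process primers, flaps and ends had 4 of 9 genes lower and 1 higher, with a median of -0.095. DNA2, a helicase and nuclease that trims flaps, fell from 115 ± 6.81 to 80.5 ± 5.08 CPM (SD over n = 3), a log2FC of -0.51 (SE 0.095, edgeR adjusted p 1.06e-05). The ligase LIG3, the primase-polymerase PRIMPOL and the flap nuclease FEN1 had log2FC of -0.42, -0.65 and -0.16. The nuclease MGME1 was higher, from 48.85 ± 9.76 to 59.8 ± 5.32 CPM (SD over n = 3), with overlap. The calls of these 4 did not hold in DESeq2 (adjusted p 0.0753, 0.195, 0.128 and 0.319). That of LIG3 was also lost without sgN6AMT1 replicate 1 (log2FC -0.28), that of PRIMPOL without sgCtrl replicate 2, sgN6AMT1 replicate 2 or sgN6AMT1 replicate 3 (-0.51, -0.57 and -0.47), and that of MGME1 without sgCtrl replicate 1 or 2 or sgN6AMT1 replicate 1 or 2 (0.18 to 0.30). That of FEN1 was lost without any of the libraries other than sgN6AMT1 replicate 3 (-0.17 to -0.13).

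Genes of nucleotide supply went both ways, with 2 of 16 lower and 4 higher. The ribonucleotide reductase subunit RRM2 fell from 457 ± 42.1 to 388 ± 7.67 CPM (SD over n = 3, log2FC -0.24, edgeR adjusted p 0.000719). DGUOK, the mitochondrial deoxyguanosine kinase, was higher, from 75.4 ± 7.80 to 94.5 ± 2.88 CPM (SD over n = 3, log2FC 0.34, edgeR adjusted p 0.00756), and this call did not hold in DESeq2 (adjusted p 0.0962) or without sgCtrl replicate 2 (log2FC 0.28, adjusted p 0.0688). The pyrimidine nucleotide carrier SLC25A36, the kinase CMPK2, the dUTPase DUT and the thymidylate synthase TYMS had log2FC of 0.69, 0.58, 0.16 and -0.15, and DESeq2 held none of them. Each of these 4 was also lost without sgCtrl replicate 2 (0.41, 0.34, 0.14 and -0.14) and without sgN6AMT1 replicate 2 (0.64, 0.50, 0.17 and -0.12). SLC25A36, DUT and TYMS were lost without sgN6AMT1 replicate 1 as well (0.57, 0.12 and -0.12), DUT without sgCtrl replicate 1 (0.13) and TYMS without sgCtrl replicate 3 (-0.16). The call of DUT was also lost with CDS length and GC trends removed (log2FC 0.028, edgeR adjusted p 0.732). It was lost too with the replicate block and without a filter on low counts (0.16 and 0.15).

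The other mtDNA transcription factors had 1 of 5 lower, MTERF3, a negative regulator of mtDNA transcription (log2FC -0.37, edgeR adjusted p 0.0374). The call was lost in DESeq2 (adjusted p 0.264) and without sgCtrl replicate 2, sgCtrl replicate 3 or sgN6AMT1 replicate 3 (log2FC -0.31, -0.31 and -0.21). TFB1M, the rRNA methyltransferase related to TFB2M, had 43.6 ± 2.51 and 44.1 ± 6.30 CPM (SD over n = 3). Of the repair genes 1 of 10 was lower and 1 higher: the uracil glycosylase UNG fell (log2FC -0.42, edgeR adjusted p 0.00226), and the endonuclease APEX2 rose (0.42, edgeR adjusted p 0.00492), which DESeq2 did not hold (adjusted p 0.101).

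Among 11 tested nuclear regulators of the machinery 2 were lower and 1 higher. HCFC1, a host cell factor that partners with transcription activators, fell from 289 ± 13.9 to 235.5 ± 19.8 CPM (SD over n = 3, log2FC -0.30, edgeR adjusted p 0.000161). The coactivator PPRC1 (log2FC -0.28) and the nuclear receptor ESRRA (0.52) passed in edgeR but not in DESeq2 (adjusted p 0.190 and 0.212). PPRC1 was lost without sgCtrl replicate 1, sgN6AMT1 replicate 1 or sgN6AMT1 replicate 2 (-0.28 to -0.19), and ESRRA without sgCtrl replicate 1 or 3 or sgN6AMT1 replicate 2 or 3 (0.40 to 0.55). ESRRA was also lost with CDS length and GC trends removed (log2FC 0.42, edgeR adjusted p 0.0665). NRF1 itself had 22.03 ± 5.44 and 25.3 ± 2.43 CPM, and GABPA 54.6 ± 7.88 and 48.5 ± 4.08 CPM (SD over n = 3), with edgeR adjusted p-values of 0.330 and 0.254. PPARGC1A had 0 counts in every library, which allows up to 1.63 CPM in the shallowest of them.

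**Figure D4:**
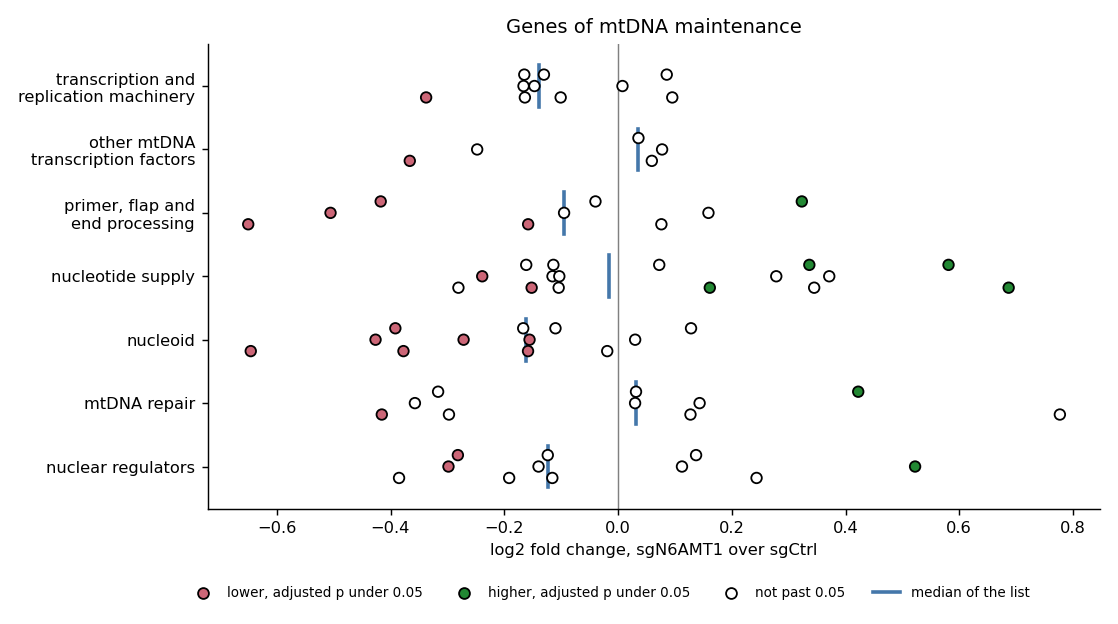
Log2 fold changes (sgN6AMT1 over sgCtrl) of the tested genes in the core machinery and in the 6 wider lists, with 1 point per gene, filled where edgeR's adjusted p was under 0.05, and a blue bar at each median. SSBP1 is the only filled point of the core machinery, and the nucleoid list holds 7 genes that were lower and none that were higher. The medians were -0.14 for the core machinery and -0.16 for the nucleoid list.

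The products of the template were read beside its machinery, as the 13 mtDNA-encoded open reading frames (ORFs), of which 6 were lower and 1 higher, beside 13.9% and 12.9% of all tested genes. DESeq2 called 6 lower and 2 higher, MT-CO1 and MT-ND6. MT-ND6, on the minus strand, had the largest log2FC of the ORFs (0.84, SE 0.23). It did not pass in edgeR (adjusted p 0.0691), though its groups did not overlap. Taken in their order along the mitochondrial genome, the 12 ORFs of the plus strand had a Spearman rho of 0.049 between position and log2FC (12 ORFs of the same libraries, given as a description). MT-CO1, which was higher (log2FC 0.34), lies between MT-ND2 and MT-CO2, which were both lower (-0.38 and -0.34). MT-CO3 and MT-CYB were lower at -0.48 and -0.35, while MT-ND5 between them was at 0.040 and did not pass. MT-ATP6 was lower at -0.33, and so was MT-ND4 at -0.21, a call that was lost without sgN6AMT1 replicate 2 (log2FC -0.15, edgeR adjusted p 0.126). These ORFs are read by mitochondrial ribosomes from long transcripts that are cut after synthesis, so their footprints do not measure transcription alone, and reads of overlapping ORFs can be shared.

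**Figure D5:**
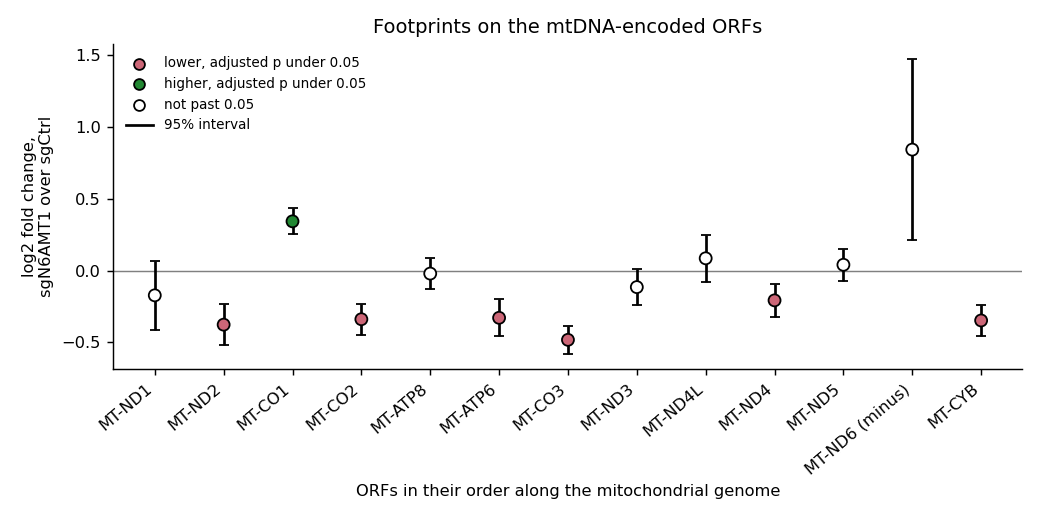
Log2 fold changes (sgN6AMT1 over sgCtrl) of footprints on the 13 mtDNA-encoded ORFs with 95% intervals, in their order along the mitochondrial genome, filled where edgeR's adjusted p was under 0.05. Of the filled points 6 lie below 0 and 1, MT-CO1, above it, and MT-ND6, the ORF of the minus strand, is highest at 0.84 without passing (adjusted p 0.0691; 0.00381 in DESeq2).

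Over the 6 libraries, the genes whose log2 CPM was most like that of SSBP1 were ATP5B (the beta subunit of ATP synthase), LUC7L2 and DNAJA2. Their Pearson r was 0.999, 0.996 and 0.996, the highest among 3660 genes of at least 50 CPM. With 3 libraries in each of 2 groups such values mostly restate that a gene was lower in sgN6AMT1.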

How the data were processed

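Ribosome profiling of 6 K562 libraries was deposited by the authors as raw counts of footprints per transcript. The authors trimmed reads with cutadapt, kept footprint lengths, removed rRNA and tRNA reads after mapping with HISAT2 to GRCh38 (Ensembl release 84), mapped to canonical transcripts with bowtie2 and summed riboWaltz P-sites over each CDS. They also counted overlaps with a gene annotation, and the sources used here do not say which kind was deposited. Multimapped reads can blur genes with copies, and counting error covers no PCR duplicates.

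The counts were tested in edgeR 4.0.16 (R 4.3.3): filterByExpr at a minimum of 10 counts kept 9202 genes, TMM factors scaled the libraries, and groups were compared by the quasi-likelihood F test with Benjamini-Hochberg adjustment over all genes tested, at 0.05. CPM are on TMM-adjusted library sizes. SE and 95% intervals come from the F statistic. Replicate pairs within a group differed by more than sampling noise (chi-square per degree of freedom 1.25 to 1.68). Transcripts were matched without version to GENCODE 44 (17687 of 19330; 17537 with a CDS). Promoters came from RefSeq. Alternatives were DESeq2 1.42.0, limma-voom (limma 3.58.1), RLE factors, total counts, both other count filters, the replicate block, removal of CDS length and GC trends (loess, span 0.5) and fits without each library. The edgeR fits (with and without the block), DESeq2 and limma-voom were tested on simulated data.

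The 10 genes and the lists were chosen with earlier results of these data known. Named genes were N6AMT1, the 10 genes, up to 4 genes past the threshold in each direction and list, the mtDNA-encoded ORFs past it, and the 3 genes most like the gene with the smallest p. Genes named beside these (TFB1M, NRF1, GABPA, PPARGC1A, C1QBP, SHMT2, HSPD1, the K562 markers, MT-ND5, MT-ND6) were chosen after their values were seen. The remaining genes of the lists (2 of 72) and 1 listed marker were not analysed here, and a further listed marker is not reported here.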

Additional observations from a re-analysis of the deposited data

How the results depend on the processing

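Every alternative called SSBP1, and SSBP1 alone of the core genes, except that 2 of the 10 (SSBP1 and TFAM, both lower) were called once trends on CDS length and GC content had been taken out. DESeq2 called 1329 genes in all where edgeR called 2473 (741 and 1282 lower), and 10 of the wider set in place of 24. A mean of at least 50 counts left 49 genes of that set and 15 calls. Fits without 1 library called 1859 to 2322 genes in all and 14 to 21 of the wider set, the lowest without sgN6AMT1 replicate 2. Scaling by library totals gave 976 lower and 1560 higher genes, so the share of lower calls moved, and the median gene shifted from 0.0063 to 0.061, which ended the calls of FEN1, TYMS, MTERF3, PPRC1, HSPD1 and SHMT2. With length and GC trends removed 1566 were lower and 972 higher.

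The single genes followed through the alternatives were the 10 core genes, N6AMT1, and the wider-list genes and ORFs past the threshold. Among these, sign changes met only core genes that did not pass. The sign of the other genes was not followed. For TEFM the log2 fold change was -0.016 in DESeq2, -0.029 in limma-voom, -0.0023 without a filter and -0.00092 with the replicate block, and -0.14 to 0.19 in fits without 1 library. For TWNK, POLG and TOP1MT, fits without 1 library gave -0.034 to 0.20, -0.21 to 0.011 and -0.045 to 0.19. Replicate numbers did not pair the samples (correlations of deviations -0.061, 0.020 and 0.016), and the block gave 2390 calls in all, 1 core gene and 20 of the wider set. The log2 differences of the 5 planned ratios moved by less than 1 SD of the log2 ratios, pooled over both groups, but 4 changed sign in fits without 1 library: TFAM over POLRMT ran from -0.073 to 0.098, TFB2M over POLRMT from -0.063 to 0.11, POLG2 over POLG from -0.16 to 0.16 and TWNK over POLG from -0.019 (without sgN6AMT1 replicate 1) to 0.34. Of the mtDNA-encoded ORFs 5 or 6 were lower and 1 or 2 higher in the alternatives, except 8 lower and 2 higher with length and GC trends removed. The genes with under 100 counts in each library, such as TWNK and MTERF1, are those where depth limits what could be seen.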
